A study of Mus musculus with 2 samples.

Results

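Expression of 8 chemokine receptor genes was examined in CD45+ leukocytes of the mouse aortic adventitia, the outer layer of the vessel wall. The genes Ccr1, Ccr2, Ccr3, Cx3cr1, Cxcr2, Cxcr3, Cxcr4 and Cxcr6 were found by their symbols, and all 8 are among the 55386 features counted in both libraries. Chemokine receptors are G protein-coupled receptors that steer leukocytes along gradients of secreted chemokines. Ccr2 is known for the exit of monocytes from bone marrow and their entry into inflamed tissue, Cx3cr1 marks patrolling monocytes and many tissue macrophages, and Cxcr2 is the main chemokine receptor of neutrophils. Ccr3 belongs to eosinophils, Cxcr3 and Cxcr6 to lymphocytes that enter or stay in tissue, and Cxcr4 retains leukocytes in bone marrow and is carried by many cell types.

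Cells came from RankCreRosa26eYFP mice aged 16 weeks, in which Cre under control of Rank permanently switches on eYFP from the Rosa26 locus, a tracer of macrophages derived from early erythro-myeloid progenitors. The steady state library pooled 3 untreated animals, and the AngII library pooled 2 animals that received angiotensin II at 1.8 µg/kg/min for 10 days. Each condition is 1 library, so no difference between conditions has a replicate check. Intervals cover counting error only.

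The steady state library held 346 barcodes and 4009678 UMIs, with a median of 8374.5 UMIs per barcode. The AngII library held 4419 barcodes and 20481854 UMIs, with a median of 1117. A filter of 300 to 6500 genes and at most 5% mitochondrial UMIs left 306 and 4198 cells. Of these, 0.980% at steady state and 45.5% on AngII had under 1000 UMIs. The libraries shared 0 barcodes. Ptprc, which encodes CD45, had a UMI in 93.8% of steady state and 63.6% of AngII cells at full depth. No cell was assigned to the fibroblast, endothelial, erythroid or platelet lists, and 1 cell of each library fell in the smooth muscle class.

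Each cell was given the class whose marker list came nearest to its full level in that library, with at least 20% of that level and at least 2 markers found; the receptors were not among the markers. This left 3 steady state and 537 AngII cells without a class. The AngII library held 525 resident macrophages, 1101 other macrophages, 309 Ear2 Retnla macrophages, 313 classical and 54 nonclassical monocytes and 66 neutrophils. It also held 433 cDC1, 124 cDC2, 328 T cells, 111 B cells, 48 migratory DC, 21 mast cells, 20 ILC2, 18 NK cells and 12 plasmacytoid DC. Receptors of classes under 10 cells are given as counts only. At steady state there were 50 resident, 69 other and 15 Ear2 Retnla macrophages, 12 classical and 12 nonclassical monocytes, 13 cDC1, 11 cDC2, 41 T cells and 49 B cells. Resident macrophages were led by Pf4 (5027 CPM at steady state and 3084 CPM on AngII) and F13a1, and neutrophils by S100a9 (46696.5 CPM on AngII) and S100a8. On AngII, 313 cells lay near the minimum of the gate and 207 had a close second class. Nonclassical monocytes on AngII carried a median of 8451 CPM of the list of other macrophages, against 1319 CPM of their own list in the summed UMIs. Classical monocytes carried 7074 CPM of the list of other macrophages, against 7268 CPM of their own. The cDC1 on AngII carried 3610 CPM of the same list. These lists are on unlike scales. On AngII the full level was 55517 CPM for other macrophages, 1288 for nonclassical monocytes, 13076 for classical monocytes and 4701 for cDC1. Values of another list are medians over cells, and those of the own list come from summed UMIs. Other macrophages carried a median of 616 CPM of the classical monocyte list on AngII, and at steady state their leading other list was that of plasmacytoid DC, at 39.6 CPM. T cells on AngII carried 1917 CPM of the list of other macrophages, against 139 CPM of their leading other list, that of nonclassical monocytes, at steady state. The part of this RNA in the receptor levels was not tested.

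Ccr2 had 16013 UMIs on AngII and 2060 at steady state. On AngII it was highest in classical monocytes, at 1712 CPM (95% Poisson interval 1652 to 1774), with a UMI in 79.6% of cells. Ear2 Retnla macrophages followed at 1333 CPM, ILC2 at 1137 CPM and other macrophages at 1133 CPM, and the intervals of these 3 classes overlapped from each to the next. Resident macrophages had 875 CPM and a UMI in 53.5% of cells, and the lowest of the 16 classes, migratory DC, had 49.8 CPM. At steady state the order differed. Among classes of at least 10 cells, cDC2 led at 1534 CPM (1379 to 1703) and Ear2 Retnla macrophages at 1520 CPM, with overlapping intervals, and Ccr2 was found in every one of these 11 and 15 cells. Classical monocytes had 908 CPM and other macrophages 70.9 CPM. The 7 steady state ILC2 all held Ccr2, with 87 UMIs and a level above that of cDC2, with overlapping intervals.

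B cells were taken as a class that should lack Ccr2, and the source of their UMIs was not tested. They had 3.56 CPM at steady state and 64.4 CPM on AngII, where 15.3% of 111 B cells with a median of 1376 UMIs held a Ccr2 UMI. In AngII B cells with at least 1000 genes the level was 8.75 CPM. Neutrophils on AngII had 164 CPM of Ccr2, from 42 UMIs of which 28 lay in 1 cell. Their level depended on how the class was drawn: it was 11.2 CPM in 48 cells with a lead asked over any other list, and 819 CPM in 393 cells when the class came from the fold over the library mean. B cells gave 491 CPM with that last gate. Both gates were chosen after seeing the data.

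Cx3cr1, the receptor for fractalkine, was highest in nonclassical monocytes in both libraries at full depth. It reached 611 CPM (485 to 760) in 12 cells at steady state and 381 CPM (322 to 447) in 54 cells on AngII. Classical monocytes at steady state had 512 CPM, with an interval that overlapped, and every one of the 12 cells held a UMI. On AngII other macrophages had 344 CPM and NK cells 313 CPM, and neither parted from nonclassical monocytes beyond counting error. The value of NK cells rests on 29 UMIs in 4 of 18 cells. B cells had 0 UMIs at steady state and 23.2 CPM on AngII.

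Cxcr2 and Ccr1 shared their leading class on AngII. Neutrophils had 1264 CPM of Cxcr2 (1130 to 1410), with a UMI in 80.3% of 66 cells, and classical monocytes came next. The 66 gated neutrophils held 37.3% of all Cxcr2 UMIs of that library, classical monocytes 13.3% and cells without a class 14.5%. These shares depend on the gate. Beside the neutrophil cluster of 124 AngII cells, an unnamed cluster of 292 cells had S100a8, S100a9, Mmp9 and Cxcr2 among its leading genes. Ccr1, a receptor for several inflammatory CC chemokines, reached 1190 CPM (1060 to 1331) in neutrophils and 365 CPM in classical monocytes. At steady state resident macrophages led in Ccr1 among classes of at least 10 cells, at 164 CPM (134 to 199), which overlapped with classical monocytes at 100.4 CPM, where 20 of 21 UMIs lay in 1 cell. All 4 steady state neutrophils held both receptors, with 19 UMIs of Cxcr2 and 29 of Ccr1. On AngII 47 of 66 neutrophils held a UMI of both. Among classes of at least 10 cells, Cxcr4 was also highest in AngII neutrophils, at 730 CPM (629 to 842), followed by B cells at 345 CPM. The cDC1, classical monocytes and cells without a class on AngII also held Cxcr2, at 15.05, 65.4 and 123 CPM, against 2.58 CPM in B cells. Among neutrophils thinned to 1000 UMIs, Cxcr4 was found in 33.3% of cells with a Cxcr2 UMI and in 73.9% of cells without, in 33 and 23 cells. At full depth the shares were 77.4% and 61.5%, so the direction turned, with 10 cells fewer after thinning.

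Cxcr4, the receptor for Cxcl12, was highest in B cells at steady state among classes of at least 10 cells, at 566 CPM (481 to 661), and in nonclassical monocytes at 400 CPM, with overlapping intervals. Of B cells, 41 of 49 at steady state and 50 of 111 on AngII held a Cxcr4 UMI; after thinning to 1000 UMIs the shares were 31.2% of 48 and 38.7% of 62 cells. No class was known to lack Cxcr4, so its free RNA could not be read from one. The lowest steady state level was 7.23 CPM in cDC1.

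Ccr3 was close to the limit of the data. It had 0 UMIs in 306 steady state cells, where 3 UMIs would be 0.822 CPM and the upper 95% limit is 1.01 CPM, and 54 UMIs in 28 AngII cells. The 6 AngII cells of the eosinophil class held 12 of them, in 3 cells, and cells without a class held 21. The eosinophil class was led by Retnlg and G0s2, both on the neutrophil list, so its name is uncertain. Its cells carried a median of 17097.5 CPM of the neutrophil list, whose full level on AngII was 165274 CPM. Of the eosinophil list they held 3813 CPM in the summed UMIs, where the full level was 1097 CPM. The 2 lists are thus on unlike scales. Among the 9 cells with at least 2 Ccr3 UMIs, 7 held Alox15, 2 Prg2, 1 Siglecf and 0 Il5ra, and Epx, which encodes eosinophil peroxidase, had no UMI in either library. A cluster of 23 AngII cells, built without the receptors, was led by Retnlg, Alox15 and Ccr3.

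Cxcr6, the receptor for Cxcl16, was highest on AngII in ILC2 at 482 CPM (377 to 606), from 72 UMIs in 11 of 20 cells, and T cells had 76.0 CPM (61.9 to 92.3). At steady state 7 ILC2 held 21 UMIs and T cells had 104 CPM (74.5 to 142). Macrophages were near 0, with 5 UMIs in 2104 AngII cells and 1 in 137 steady state cells. Cxcr3, the receptor for Cxcl9 and Cxcl10, had 83.0 CPM (71.7 to 95.5) in cDC1 and 41.4 CPM (31.2 to 53.9) in T cells on AngII. The value of 132 CPM in plasmacytoid DC came from 8 UMIs in 12 cells and overlapped with that of cDC1. The cDC1 held 59.9% of all Cxcr3 UMIs of the AngII library. At steady state cDC1 had 47.0 CPM and T cells 46.9 CPM. Of the 28 AngII T cells with a Cxcr3 UMI, 11 also held Cxcr6, and 15 of the other T cells did. After thinning to 1000 UMIs, 0 of 168 T cells held both.

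**Figure D1:**
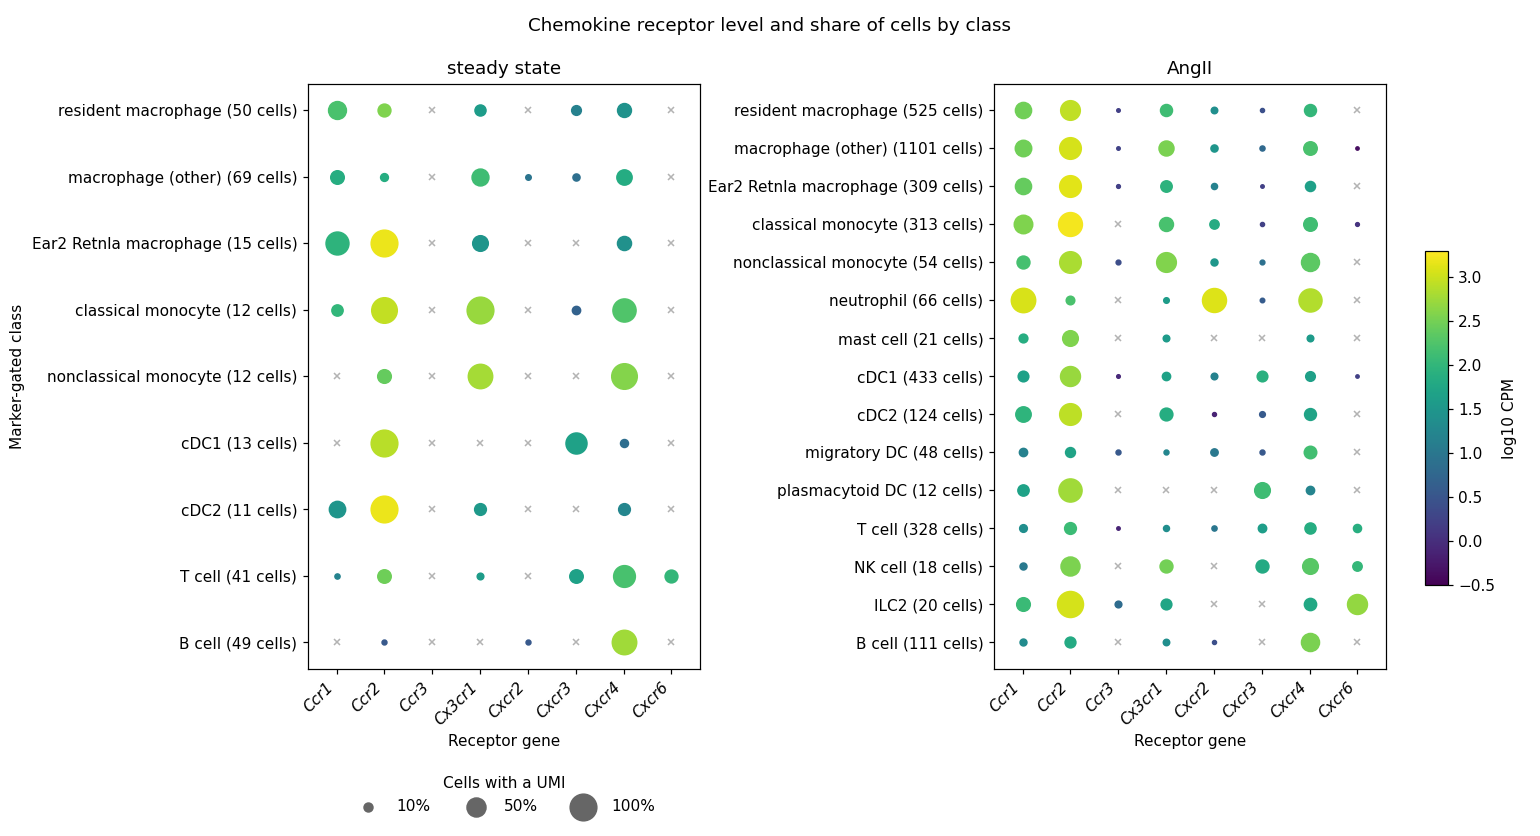
Level and detection of the 8 receptors in the named classes of at least 10 cells, at steady state and on AngII. Colour is log10 CPM of summed UMIs, area grows with the percentage of cells with a UMI, and crosses mark 0 UMIs. On AngII, Cxcr2 and Ccr1 peak in neutrophils at 1264 and 1190 CPM, and Ccr2 peaks in classical monocytes at 1712 CPM.

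The levels of both conditions were compared in macrophages, T cells and B cells, the classes with at least 20 cells in each library. Over all macrophages, Ccr2 was 516 CPM at steady state and 1064 CPM on AngII, a ratio of 2.06 (1.92 to 2.21). Alternatives moved it well beyond that interval, from 1.21 with a gate chosen after seeing the data to 4.39 after thinning to 500 UMIs. Cx3cr1 was 72.9 and 238 CPM, a ratio of 3.27 (2.73 to 3.93). Ccr1 was 123 and 299 CPM, a ratio of 2.44, and Cxcr4 was 41.2 and 130 CPM, a ratio of 3.16 that was 1.52 (1.15 to 2.03) with clusters in place of the gate. Cxcr2 was 3.39 and 27.0 CPM, a ratio of 7.96 (3.60 to 21.9), with 6 UMIs at steady state, 5 of them in 1 cell. Across all 11074 genes with at least 20 UMIs on either side, 15.8% passed a ratio of 2 in either direction and 8.67% were higher. Cxcr2 entered that set through its AngII UMIs only.

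The ratio differed between macrophage classes. Other macrophages had 70.9 CPM of Ccr2 at steady state and 1133 CPM on AngII, a ratio of 16.0 (12.01 to 21.8), and 7.25% and 65.3% of their cells held a UMI. Of the 47 steady state UMIs 21 lay in 1 cell. The ratio was 28.2 (19.2 to 43.3) without the top cell of each library. It was 127 (49.7 to 468) with a gate chosen after seeing the data, from 4 steady state UMIs. After thinning to 1000 UMIs the shares were 1.47% of 68 and 61.8% of 623 cells. The part of the classical monocyte list in this ratio was not tested. In this class 20.6% of genes passed a ratio of 2. Their Cx3cr1 was 131 CPM at steady state and 344 CPM on AngII, a ratio of 2.62 (2.11 to 3.29). That ratio was 6.48 (2.18 to 31.7) after thinning to 1000 UMIs, from 3 steady state UMIs, and 1.79 with equal weight for each cell. Resident macrophages had 367 CPM of Ccr2 at steady state and 875 CPM on AngII, a ratio of 2.38 (2.08 to 2.75), and 14.3% of genes passed the same limit. A Ccr2 UMI was found in 22.0% of the 50 steady state and 53.5% of the 525 AngII cells. After thinning to 1000 UMIs the shares were 18.4% of 49 and 47.9% of 288 cells. With clusters the Ccr2 ratio of resident macrophages was 11.1 (8.45 to 14.9). With a pair of gates chosen after seeing the data, which ask for a lead of 2 over any other list and leave 8 resident cells at steady state, the direction of Ccr2 turned and its ratio was 0.652 and 0.669. Their Cx3cr1 was 38.3 and 133 CPM, a ratio of 3.48, with 11 of 24 steady state UMIs in 1 cell. That ratio was 5.83 without the top cell of each library, 13.1 with clusters and 1.53 (0.549 to 5.92) after thinning to 1000 UMIs. Cxcr2 had 0 UMIs in resident cells at steady state and 23.9 CPM on AngII, at least 4.997-fold higher. Ccr1 in resident cells was 164 and 302 CPM, and 33 of its 103 steady state UMIs lay in 1 cell. At steady state the 15 Ear2 Retnla macrophages held 605 of the 914 Ccr2 UMIs of all macrophages.

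T cells had 287 CPM of Ccr2 at steady state, with 42 of 110 UMIs in 1 cell, and 123 CPM on AngII, a ratio of 0.430 (0.336 to 0.553). Their Cxcr4 was 159 and 72.2 CPM. The Ccr2 ratio was 1.18 when each cell was given the same weight, so its direction turned. It was 0.993 (0.738 to 1.35) with clusters, 0.759 (0.348 to 1.83) after thinning to 1000 UMIs and 0.732 (0.489 to 1.12) with the stricter gate. Cxcr3 and Cxcr6 of T cells had ratios of 0.882 (0.510 to 1.60) and 0.729 (0.501 to 1.08), with 1 inside both intervals. Their ratios depended on how the class was drawn: with clusters they were 0.103 (0.0337 to 0.265) and 0.0152 (0.00179 to 0.0582), and Cxcr6 was 0.603 (0.409 to 0.904) with the stricter gate. The T cell clusters of the 2 libraries were unlike groups. The steady state one had Nkg7 and Gzma among its leading genes. On AngII an unnamed cluster of 132 cells had Nkg7, Gzma and Cxcr6 among them and was left out. After thinning to 1000 UMIs Cxcr3 was 2.44 (0.347 to 105.9), from 10 and 1 UMIs. In T cells 27.2% of genes passed a ratio of 2, and the median gene was at 1.21. B cells had 566 and 345 CPM of Cxcr4, a ratio of 0.611 (0.481 to 0.773), where 10.4% of genes passed the limit. After thinning to 1000 UMIs that ratio was 0.935 (0.526 to 1.68). Ccr2 in B cells had a ratio of 18.1 (2.96 to 744) from 1 and 25 UMIs. The part of free RNA in this and the other ratios was not tested.

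**Figure D2:**
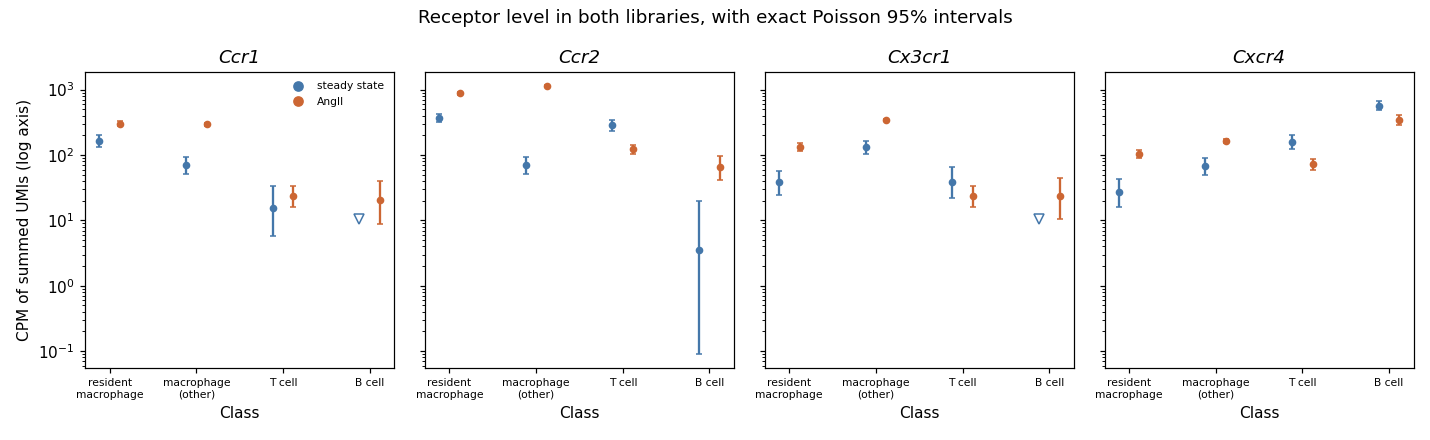
Level of Ccr1, Ccr2, Cx3cr1 and Cxcr4 in 4 classes of both libraries. The log axis gives CPM of summed UMIs, bars are exact Poisson 95% intervals, and open triangles mark 3 UMIs where none was found. Ccr2 of other macrophages lies at 70.9 CPM at steady state and 1133 CPM on AngII.

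Resident macrophages were then set against all other macrophages of the same library. At steady state Ccr2 was 367 CPM in resident and 598 CPM in other cells, a ratio of 0.614 (0.526 to 0.713). Of the 684 UMIs in these other cells, 605 lay in the 15 Ear2 Retnla macrophages, and the 69 cells of the class of other macrophages, at 70.9 CPM, were below resident cells. Cx3cr1 was 38.3 and 91.8 CPM, a ratio of 0.417 (0.256 to 0.655). On AngII the ratios were 0.784 (0.743 to 0.828) for Ccr2 and 0.499 (0.435 to 0.571) for Cx3cr1. Ccr1 had a ratio of 1.65 (1.251 to 2.17) at steady state, which was 1.02 (0.659 to 1.55), 1.04 and 0.957 with 3 of the gates chosen after seeing the data. On AngII its ratio was 1.01 (0.919 to 1.11), against 1.16, 1.37 and 1.37 with the same 3 gates and 1.69 (1.47 to 1.93) with clusters. It was 0.911 and 0.806 after thinning to 1000 and 500 UMIs, and 0.866 with equal weight for each cell. A ratio of 2 in either direction was passed by 8.81% of genes at steady state and 7.43% on AngII, and Cx3cr1 was the only receptor beyond it in each library. The direction of Cx3cr1 turned at steady state after thinning to 1000 UMIs, with a ratio of 2.34 (0.396 to 15.98) from 4 and 3 UMIs, and on AngII with clusters in place of the gate, with 2.90. In that cluster comparison 287 of the 332 other cells were Ear2 Retnla macrophages, against 309 of 1579 with the gate, so the groups were unlike. The steady state Ccr2 ratio was 1.04 after thinning to 500 UMIs. With clusters it was 0.0730 (0.0542 to 0.0964), where the other cells were 1 cluster of 42, so these groups were also unlike those of the gate.

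Macrophages with an EYFP UMI (Yfp+) were compared with those without (Yfp-). Of all macrophages, 73.0% at steady state and 16.1% on AngII were Yfp+ at full depth, and Yfp- cells were shallower, with a median of 996.5 against 5081 UMIs on AngII and 6673 against 11322.5 at steady state. The part of depth in the Yfp call was not tested. On AngII 2 of 111 B cells held an EYFP UMI, and 0 of 49 did at steady state. Ccr2 was 897 CPM in Yfp+ and 1167 CPM in Yfp- macrophages on AngII, a ratio of 0.769 (0.735 to 0.803) that was 0.992 (0.932 to 1.06) and 0.991 with 2 of the gates chosen after seeing the data, and 478 and 684 CPM at steady state, a ratio of 0.6999 (0.601 to 0.817). Cx3cr1 was 61.0 and 125 CPM at steady state, a ratio of 0.488 (0.333 to 0.725), and 257 and 226 CPM on AngII, a ratio of 1.14 (1.04 to 1.24). The AngII value was 1.06 (0.974 to 1.15) without a cell filter and 1.09 (0.992 to 1.20) with the stricter gate, with 1 inside both intervals. Within resident macrophages on AngII, Ccr2 had a ratio of 0.627 (0.567 to 0.692) and Cxcr4 of 0.483 (0.356 to 0.652). Within steady state resident macrophages the Ccr2 ratio went the other way, at 14.7 (2.61 to 582), from 229 UMIs in 41 Yfp+ and 1 UMI in 9 Yfp- cells. Only 11 of these 50 cells held a Ccr2 UMI, with up to 36 UMIs in 1 cell. The Yfp- cells were also shallower, with a median of 3862 against 12251 UMIs. A ratio of 2 was passed by 10.2% of genes at steady state and 4.15% on AngII; among the receptors, Cx3cr1 and Cxcr4 were beyond it at steady state and none on AngII. At steady state each of these directions turned under some alternative: Ccr2 was 1.19 with equal weight for each cell, Cx3cr1 was 1.53 with clusters and Cxcr4 was 2.10 (0.255 to 96.6) after thinning to 1000 UMIs, from 6 and 1 UMIs. With 2 of the gates chosen after seeing the data Cxcr4 moved further down from 0.494, to 0.139 and 0.151.

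At full depth 9 of 137 steady state macrophages held both Ccr2 and Cx3cr1, 25 Ccr2 alone and 32 Cx3cr1 alone, so Cx3cr1 was found in 26.5% of cells with Ccr2 and 31.1% of those without. On AngII 428 of 2104 held both, 862 Ccr2 alone and 91 Cx3cr1 alone, and these shares were 33.2% and 11.2%, or 19.5% and 12.9% after thinning to 1000 UMIs. Thinning left out 2 and 946 cells, and the cells with both were 0 of 135 and 129 of 1158. Steady state monocytes held both in 14 of 24 cells at full depth and in 2 of 24 after thinning.

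Among the 19 ligands of these receptors, 16 had enough UMIs in macrophages. The ratio of AngII to steady state was at most 0.5 for Ccl2, Ccl24, Cxcl1, Cxcl9 and Cxcl12, and 7.17% of all genes were that much lower. Cxcl3 went from 1.13 to 102 CPM and passed the limit on UMIs only through AngII, with 2 UMIs at steady state. In resident macrophages 14 ligands could be compared, of which 6 were at least 2 times higher (Ccl3, Ccl4, Ccl5, Ccl6, Ccl9 and Ccl12) and 3 lower (Ccl24, Cxcl1 and Cxcl12), against 9.60% and 4.67% of all genes in that class. Ccl5 had 1 UMI there at steady state. The rise was not limited to this class. In B cells all 6 ligands that could be compared were at least 2 times higher on AngII, Ccl3, Ccl4, Ccl6 and Ccl9 among them. Of all genes 5.76% were that much higher there. Genes were compared with at least 20 UMIs on either side. A ligand low at steady state could therefore enter through its AngII UMIs only, in B cells as in the other classes. In T cells 6 of 9 ligands were higher, Ccl3 and Ccl9 among them, and 1, Ccl5, was lower, against 22.1% and 5.04% of all genes. In other macrophages 6 of 15 ligands were lower (Ccl2, Ccl3, Ccl5, Ccl24, Cxcl1 and Cxcl9) and 1, Cxcl3, was higher. Of the 9766 genes compared in that class, 879 were that much lower and 1132 that much higher. The part of free RNA was not tested. Over all macrophages Ccl2, the main ligand of Ccr2, was 2188 CPM at steady state and 787 CPM on AngII, a ratio of 0.360 (0.346 to 0.374), and in resident macrophages it was 1802 and 1401 CPM. Cxcl12, the ligand of Cxcr4, was 57.1 and 3.65 CPM over all macrophages. The steady state cluster of resident macrophages had Mgp, Tagln and Acta2, genes of stromal and smooth muscle cells, among its leading genes and the AngII ones did not; the part of such RNA in Cxcl12 was not tested. Cx3cl1 had 1 and 3 UMIs, so its level could not be compared. All 12 genes of receptor signalling and desensitization stayed within a ratio of 2 over all macrophages, with a median of 1.01, while Rgs2 was higher on AngII in resident and Rgs1 in other macrophages. Arrb2, a beta-arrestin, was 152 and 150 CPM over all macrophages.

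The genes most alike to each receptor were sought over the 14 AngII classes of at least 20 cells, by Pearson correlation of log2(CPM + 20) among 9515 genes that are not markers. These classes share 1 library and its free RNA. Ccr1 was nearest to Bst1 (r = 0.97), Cd14 and Tgm1, and Cxcr2 to Stfa2l1 (r = 0.97), Amer2 and Ppp1r3b. Ccr2 was nearest to Ebp (r = 0.94), Aph1a and Pid1, and Cx3cr1 to Lair1 (r = 0.92), Tmem119 and Itgb5. Rora (r = 0.98) and Il2rb (r = 0.97) were among the 3 genes nearest to Cxcr6. Cxcr3 was nearest to Lrrc1 (r = 0.95), Dek and Tcf19, and Cxcr4 to Fam122a (r = 0.89), Mirt1 and Gm19951. Ccr3 had too few UMIs.

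The receptor genes lie in groups. In the GENCODE M21 annotation of GRCm38, Ccr1 (chr9:123962124-123968692), Ccr3 (chr9:124021972-124031689) and Ccr2 (chr9:124101950-124113557) are neighbours on chromosome 9, with Cxcr6 (chr9:123806475-123811760) before them and Cx3cr1 (chr9:119901616-120069879) further off. Cxcr2 (chr1:74153989-74161246) and Cxcr4 (chr1:128588199-128592293) are on chromosome 1, and Cxcr3 (chrX:101731535-101734269) is on chromosome X. Cxcr6 overlaps Fyco1 on the opposite strand, and the Cx3cr1 model overlaps 9 genes, of which Gorasp1, Csrnp1 and Xirp1 lie on its strand. The part of these overlaps in the counts was not tested. All 8 promoters matched the RefSeq table of GRCm38.p6.

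The promoters of 2 pairs of receptors are shown, 250 bases before to 50 after the start given by RefSeq, 5′ to 3′. That start is not the GENCODE start for Cxcr2, Cxcr3 or Cxcr6. Ccr1 (chr9:123968643-123968942, minus strand) and Cxcr2 (chr1:74153744-74154043, plus strand) led in neutrophils, and Cxcr3 (chrX:101734098-101734397, minus strand) and Cxcr6 (chr9:123806227-123806526, plus strand) were both found in T cells, although on AngII each was highest in another class. Capitals mark matches on either strand to GGAAGT, the core of PU.1 sites, TTNNGNAA, a loose C/EBP motif, and TGTGGT, of RUNX factors.
Ccr1: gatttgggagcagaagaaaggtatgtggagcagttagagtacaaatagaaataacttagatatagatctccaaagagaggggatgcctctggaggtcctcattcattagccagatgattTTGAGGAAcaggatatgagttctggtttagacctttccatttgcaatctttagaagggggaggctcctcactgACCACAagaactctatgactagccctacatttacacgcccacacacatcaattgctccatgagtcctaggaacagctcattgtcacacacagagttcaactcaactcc
Cxcr2: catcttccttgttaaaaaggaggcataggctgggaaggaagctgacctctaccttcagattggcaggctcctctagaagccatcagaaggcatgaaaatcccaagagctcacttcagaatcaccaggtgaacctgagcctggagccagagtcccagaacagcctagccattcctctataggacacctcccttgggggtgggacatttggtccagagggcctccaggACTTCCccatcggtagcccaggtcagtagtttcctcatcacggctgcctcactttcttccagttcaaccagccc
Cxcr3: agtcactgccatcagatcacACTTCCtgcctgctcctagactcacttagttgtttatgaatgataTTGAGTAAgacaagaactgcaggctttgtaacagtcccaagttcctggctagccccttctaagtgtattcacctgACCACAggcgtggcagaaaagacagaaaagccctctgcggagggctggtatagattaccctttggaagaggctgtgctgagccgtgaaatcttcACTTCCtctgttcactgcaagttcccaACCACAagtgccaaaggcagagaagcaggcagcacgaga
Cxcr6: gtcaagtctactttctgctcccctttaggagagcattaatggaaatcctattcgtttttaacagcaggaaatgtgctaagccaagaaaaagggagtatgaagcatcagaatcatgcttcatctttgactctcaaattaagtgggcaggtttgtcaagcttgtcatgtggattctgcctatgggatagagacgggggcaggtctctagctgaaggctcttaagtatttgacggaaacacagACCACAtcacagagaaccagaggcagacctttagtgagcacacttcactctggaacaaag
Of 27025 promoters of this length, 24.1% hold GGAAGT, 40.7% TTNNGNAA and 16.9% TGTGGT. A further 3 motifs were searched, AGGTGT (13.9% of promoters), an interferon response element (3.49%) and GGGANTTCC (1.69%); among the 8 receptors AGGTGT was found in Cxcr2, and the other 2 in none. Cxcr3 held 2 matches of GGAAGT and 2 of TGTGGT, and no motif was common to Ccr1 and Cxcr2.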

How the data were processed

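Sorted CD45+ cells were profiled with 10x Genomics 3' chemistry. The authors demultiplexed with Je and counted with Cell Ranger 3.1.0, using the GRCm38.p6 genome, GENCODE M24 gene models and an added eYFP entry; the deposited values are raw UMI counts. Here UMIs were summed per class and given as CPM with exact Poisson 95% intervals; shares have Clopper-Pearson intervals, and ratios exact conditional ones. A count of 0 was set to 3 UMIs for ratios. Receptor shares compared between the libraries were also counted after thinning cells to 1000 UMIs; the Ptprc and eYFP shares were not. The members, gene lists and comparisons were chosen with earlier results of these data known.

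The gate was not chosen blind. Of 6 versions compared, 5 were first looked at together with receptor levels, before one was settled on; the sixth, with a lead of 2 over classes of another family, was added later as the stricter gate. The version used was then kept because it left the fewest cells without a class, 0.980% at steady state and 12.8% on AngII, and kept 50 resident macrophages at steady state. The version that takes the fold over the library mean had the list of another cell family above its own in 28.1% of AngII cells, against 14.5% in the version used, on a scale that favours the latter. The stricter gate held fewer markers of other classes but left 28.7% of AngII cells without one. The 4 remaining versions are given as alternatives chosen after seeing the data. Clusters were built without chemokine receptors and eYFP. They were named where their leading genes were judged to fit the name, a condition added after their first values were seen. In places the fit was loose. The steady state cluster of 42 cells named Ear2 Retnla macrophage had Lyz1 and Fn1 but neither Ear2 nor Retnla among its leading genes. An AngII cluster of 19 cells named resident macrophage was led by Lmna, Tppp3 and Mmp9, with Pf4 further down.

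Named genes are the 8 receptors, the pathway lists, the 2 most abundant markers of a class and the 3 genes most alike to each receptor. In all 5 receptor pairs were counted and 6 motifs searched. The results given most weight were picked with their own values seen, before their alternatives were run. The ratio step was tested on simulated data. Scrublet called 5 steady state and 0 AngII doublets; all were left in. Tools were Python 3.11.15, NumPy 2.4.6, SciPy 1.17.1 and Scanpy 1.11.5. With 1 library per condition no p-value was computed.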

Additional observations from a re-analysis of the deposited data

How the results depend on the processing

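Alternatives were the cell filter, depth, weighting, clusters, a stricter gate, doublets, the top cell, the Yfp call and, for class levels only, free RNA. Gates (a), (c), (d) and (e) were chosen after seeing the data: (a) takes the fold over the library mean, the others ask for a larger minimum and lead. Clusters were named where their leading genes were judged to fit, a condition added after their first values were seen, and in places the fit was loose. They gave no value for steady state B cells, steady state other macrophages, cDC2 or nonclassical monocytes, and on AngII only 15 cells for other macrophages. Cluster ratios of resident over other macrophages therefore compare other groups than the gate does. At steady state the comparator is 1 cluster of 42 cells, named Ear2 Retnla macrophage by its score. Cxcl9, Lyz1 and Lpl led it, neither Ear2 nor Retnla was among its leading genes, and the gate held 15 such cells. Scrublet called 0 AngII doublets, so that alternative gave no AngII level. Of 265 alternative values of the 21 main results, 154 stayed within the counting interval, 103 left it and 8 turned direction; of 374 values of 29 others, 270 stayed, 93 left and 11 turned. Of the others, only values that turned are listed. The cause was not tested. Ccr2 in AngII neutrophils ranged from 11.2 to 819 CPM and in B cells from 8.75 to 491 CPM. The depth of the AngII library limits every share of cells. Ccr2 in all macrophages, AngII over steady state, reported as 2.06, was 3.05 thinned to 1000 UMIs, 4.39 thinned to 500 UMIs, 3.53 with equal weight per cell, 1.39 with clusters, 1.88 gate (a), 1.54 gate (c), 1.21 gate (d) and 1.27 gate (e). Ccr2 in resident macrophages, AngII over steady state, reported as 2.38, was 3.37 thinned to 500 UMIs, 3.34 with equal weight per cell, 11.1 with clusters, 3.11 gate (a), 1.31 gate (c), 0.652 gate (d) (turned) and 0.669 gate (e) (turned). Ccr2 in other macrophages, AngII over steady state, reported as 16.0, was 77.6 thinned to 1000 UMIs, 37.0 thinned to 500 UMIs, 21.8 with the stricter gate, 28.2 without the top cell, 127 gate (a), 27.7 gate (d) and 25.7 gate (e). Cx3cr1 in all macrophages, AngII over steady state, reported as 3.27, was 4.06 thinned to 1000 UMIs, 4.60 thinned to 500 UMIs, 2.21 with equal weight per cell, 4.16 with clusters, 4.20 gate (d) and 4.27 gate (e). Cx3cr1 in resident macrophages, AngII over steady state, reported as 3.48, was 2.13 without a cell filter, 1.53 thinned to 1000 UMIs, 13.1 with clusters, 5.83 without the top cell, 8.86 gate (c), 12.3 gate (d) and 12.7 gate (e). Cx3cr1 in other macrophages, AngII over steady state, reported as 2.62, was 6.48 thinned to 1000 UMIs and 1.79 with equal weight per cell. Ccr2 in T cell, AngII over steady state, reported as 0.430, was 1.18 with equal weight per cell (turned). Ccr1 in resident over other macrophages, steady state, reported as 1.65, was 0.957 gate (e) (turned). Ccr1 in Yfp+ over Yfp- macrophages, AngII, reported as 0.887, was 1.12 thinned to 500 UMIs (turned), 1.19 with equal weight per cell (turned) and 1.29 with clusters (turned). Ccr2 in Yfp+ over Yfp- macrophages, steady state, reported as 0.6999, was 0.992 thinned to 1000 UMIs, 1.60 thinned to 500 UMIs (turned), 1.19 with equal weight per cell (turned), 0.518 with clusters, 0.833 without the top cell, 0.892 with Yfp+ from 2 UMIs and 0.868 gate (d). Ccr2 in resident over other macrophages, steady state, reported as 0.614, was 0.936 thinned to 1000 UMIs, 1.04 thinned to 500 UMIs (turned), 0.770 with equal weight per cell, 0.0730 with clusters, 0.406 gate (a), 0.716 gate (c), 0.852 gate (d) and 0.9003 gate (e). Ccr2 in Yfp+ over Yfp- macrophages, AngII, reported as 0.769, was 0.809 thinned to 1000 UMIs, 0.868 with equal weight per cell, 0.808 with the stricter gate, 0.732 with Yfp+ from 2 UMIs, 0.822 gate (c), 0.992 gate (d) and 0.991 gate (e). Ccr2 in resident over other macrophages, AngII, reported as 0.784, was 0.733 thinned to 1000 UMIs, 0.735 thinned to 500 UMIs, 0.830 gate (a), 0.627 gate (c), 0.452 gate (d) and 0.464 gate (e). Cx3cr1 in Yfp+ over Yfp- macrophages, steady state, reported as 0.488, was 1.53 with clusters (turned) and 0.796 gate (a). Cx3cr1 in resident over other macrophages, steady state, reported as 0.417, was 2.34 thinned to 1000 UMIs (turned), 0.150 gate (c), 0.0775 gate (d) and 0.0774 gate (e). Cx3cr1 in Yfp+ over Yfp- macrophages, AngII, reported as 1.14, was 1.29 thinned to 500 UMIs, 1.35 with equal weight per cell, 1.42 with clusters, 1.38 gate (d) and 1.38 gate (e). Cx3cr1 in resident over other macrophages, AngII, reported as 0.499, was 0.636 thinned to 500 UMIs, 0.585 with equal weight per cell, 2.90 with clusters (turned), 0.746 gate (a), 0.276 gate (d) and 0.284 gate (e). Cxcr4 in Yfp+ over Yfp- macrophages, steady state, reported as 0.494, was 2.10 thinned to 1000 UMIs (turned) and 1.07 with clusters (turned). Cxcr4 in resident over other macrophages, steady state, reported as 0.554, was 1.19 with clusters (turned). Cxcr4 in Yfp+ over Yfp- macrophages, AngII, reported as 0.724, was 1.30 with clusters (turned). Cxcr4 in resident over other macrophages, AngII, reported as 0.763, was 1.12 with equal weight per cell (turned) and 3.57 with clusters (turned). Ccr1 CPM in neutrophil, AngII, reported as 1190.1, was 745 gate (a), 1356 gate (c), 1382 gate (d) and 1485 gate (e). Ccr2 CPM in classical monocyte, AngII, reported as 1712, was 1482 thinned to 500 UMIs, 1608 with equal weight per cell, 1787 with the stricter gate, 1637 gate (a), 1825 gate (c), 1822 gate (d) and 1883 gate (e). Cx3cr1 CPM in nonclassical monocyte, AngII, reported as 381, was 475 thinned to 1000 UMIs, 185 thinned to 500 UMIs, 454 gate (a), 505 gate (d) and 527 gate (e). Cxcr2 CPM in neutrophil, AngII, reported as 1264, was 1589 thinned to 1000 UMIs, 1047 with clusters, 579 gate (a) and 1431 gate (e). Cxcr3 CPM in plasmacytoid DC, AngII, reported as 132, was 0 thinned to 1000 UMIs and 51.4 with equal weight per cell. Cxcr4 CPM in neutrophil, AngII, reported as 729.7, was 939 thinned to 500 UMIs, 955 with clusters and 557 gate (a). Cxcr6 CPM in ILC2, AngII, reported as 482, was 817 with the stricter gate, 736 gate (c), 817 gate (d) and 817 gate (e).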
